A study of Mus musculus with 12 samples.

Results

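Imprinted growth genes were described in C18-4 cells, an immortalized mouse line derived from type A spermatogonia and used as a model of spermatogonial stem cells. The set held 9 genes chosen by symbol: Igf2, Mest, Peg3, Peg10, Dlk1, Cdkn1c, Grb10, Plagl1 and Ndn. Of the 17576 genes in the expression table, 8 were members with values, and Ndn was not analysed here. Total RNA was sequenced in 12 libraries, 3 in each of 4 groups that had all received virus. The groups were 8276OV (overexpression of the long noncoding RNA lncRNA8276), 5NC, 8276KD (inhibition of lncRNA8276) and 3NC. The labels do not say what 5NC and 3NC stand for. They were taken as the controls of 8276OV and 8276KD because the design lists them beside those groups. The strain is labelled IRC mouse for every library, and no vector, clone or time after infection is given. Whether a group's 3 libraries came from different cultures is not stated. The p-values therefore speak only of the spread between libraries, and that spread may be technical. The lncRNA8276 transcript was not analysed here, so it gave no check of the labels.

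Imprinted genes are transcribed mainly from the copy inherited from the father or from the copy inherited from the mother. The choice is set by DNA methylation laid down in the germ line, where the marks of the previous generation are erased and new ones written. Paternally expressed members of this set, such as Igf2, Peg3, Peg10, Mest, Dlk1, Plagl1 and Ndn, are expressed in fetal, placental or neuronal tissue. Maternally expressed members, such as Cdkn1c and, in most tissues, Grb10, are known for holding growth back. RNA totals per gene, as measured here, do not tell which parental copy was read, and no methylation was measured.

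The sequences around the annotated starts of the members whose levels varied between groups are shown because CpG sites, the letters that carry methylation, are unevenly spread among them. Each runs from 250 bases before to 50 bases after a start, from RefSeq on GRCm38.p6 (mm10), 5′ to 3′ on the gene's own strand, with every CG in capitals. They lie at chr7:6730370-6730669 (minus strand) for Peg3, chr10:13090582-13090881 (plus strand) for Plagl1, chr11:12037371-12037670 and chr11:12027922-12028221 (minus strand) for starts 1 and 2 of Grb10, and chr7:142666767-142667066 and chr7:142658755-142659054 (minus strand) for starts 1 and 3 of Igf2.
Peg3: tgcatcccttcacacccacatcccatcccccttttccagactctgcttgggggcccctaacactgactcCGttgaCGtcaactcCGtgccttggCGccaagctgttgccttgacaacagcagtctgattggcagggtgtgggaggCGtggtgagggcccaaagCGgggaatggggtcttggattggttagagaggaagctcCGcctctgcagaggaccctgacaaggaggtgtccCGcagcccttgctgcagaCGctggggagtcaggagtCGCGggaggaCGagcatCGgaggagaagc
Plagl1: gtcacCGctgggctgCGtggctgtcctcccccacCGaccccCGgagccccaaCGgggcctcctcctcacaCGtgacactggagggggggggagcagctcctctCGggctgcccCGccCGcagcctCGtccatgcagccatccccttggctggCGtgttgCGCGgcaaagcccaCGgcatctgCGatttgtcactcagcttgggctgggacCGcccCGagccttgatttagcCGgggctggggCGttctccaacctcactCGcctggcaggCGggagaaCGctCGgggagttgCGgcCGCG
Grb10 start 1: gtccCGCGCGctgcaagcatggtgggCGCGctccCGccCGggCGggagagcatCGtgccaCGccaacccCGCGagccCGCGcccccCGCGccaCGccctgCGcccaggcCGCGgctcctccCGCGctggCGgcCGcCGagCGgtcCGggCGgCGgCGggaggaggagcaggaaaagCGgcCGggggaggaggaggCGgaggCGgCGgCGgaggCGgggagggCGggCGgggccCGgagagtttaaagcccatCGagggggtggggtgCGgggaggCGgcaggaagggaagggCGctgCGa
Grb10 start 2: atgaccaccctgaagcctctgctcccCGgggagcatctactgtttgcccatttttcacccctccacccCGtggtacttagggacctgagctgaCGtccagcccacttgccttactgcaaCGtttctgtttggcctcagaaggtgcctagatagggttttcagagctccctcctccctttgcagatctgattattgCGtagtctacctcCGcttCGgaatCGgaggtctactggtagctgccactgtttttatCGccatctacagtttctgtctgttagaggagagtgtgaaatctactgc
Igf2 start 1: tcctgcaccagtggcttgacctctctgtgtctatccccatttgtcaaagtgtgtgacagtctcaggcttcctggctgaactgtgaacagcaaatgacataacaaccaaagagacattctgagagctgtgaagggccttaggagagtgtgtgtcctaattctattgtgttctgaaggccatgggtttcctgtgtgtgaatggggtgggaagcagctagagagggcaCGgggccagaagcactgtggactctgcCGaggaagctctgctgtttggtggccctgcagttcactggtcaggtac
Igf2 start 3: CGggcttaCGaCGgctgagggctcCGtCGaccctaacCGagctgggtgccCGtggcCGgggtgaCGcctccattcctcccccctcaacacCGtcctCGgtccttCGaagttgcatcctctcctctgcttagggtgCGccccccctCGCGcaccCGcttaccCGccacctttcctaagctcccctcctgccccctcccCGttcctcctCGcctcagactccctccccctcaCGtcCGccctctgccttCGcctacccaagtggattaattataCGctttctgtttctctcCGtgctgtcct

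The window at start 1 of Grb10 held 45 CG sites, a number reached by 1.93% of the 32851 promoter windows of the same length, whereas the window at start 2 held 9. Plagl1 had 26 CG sites and Peg3 had 13, against a median of 7 over all windows. Igf2 has 4 annotated starts, which held 2, 14, 24 and 7 CG sites. The letters TGCCGC, the core that the imprint-protecting zinc finger protein ZFP57 binds when methylated, were searched on both strands. They occurred in 11.6% of all windows and in 5 of the 12 windows of the 6 members with an entry: Plagl1, start 1 of Grb10, start 2 of Igf2, and 2 overlapping windows of Mest. The letters hold a CG themselves, and the windows with a match had 14 to 45 CG sites. The share over all windows is thus not one of windows with like CG content. A match is a description of the letters and not evidence of binding. Peg10 and Cdkn1c were the other members whose levels varied.

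Values were read as FPKM, fragments scaled by transcript length and by library total. Because FPKM are per length, levels can be compared between genes. The implied depth was 11.9 M to 13.3 M fragments per library, and 10929 to 11165 genes reached 1 FPKM. Of 13 markers of spermatogonia and germ cells with values, 10 stayed below 1 FPKM in all 12 libraries. The exceptions were Uchl1, Id4 and Etv5, so most defining markers of the labelled cell type were absent or near absent. The 13 markers summed to 76.4 to 87.8 FPKM in 8276OV, 93.6 to 97.3 in 5NC, 123.4 to 145.5 in 8276KD and 82.5 to 91.3 in 3NC. Most of that sum was Uchl1, at 125.1 ± 12.3 FPKM in 8276KD, against 77.1 ± 4.62 in 3NC, while Etv5 was at 4.09 ± 0.437 in 8276KD, against 7.81 ± 0.0854 in 3NC (SD, n = 3 each). Summed markers of fibroblasts (4 with values) ranged from 238.2 to 309.2 FPKM in 8276OV, from 381.1 to 385.4 in 5NC, from 274.4 to 348.5 in 8276KD and from 251.4 to 262.2 in 3NC. Most of that sum was Col1a1, at 300.2 ± 40.9 FPKM in 8276KD, against 256.2 ± 6.15 in 3NC (SD, n = 3 each), which did not pass the test (limma, adjusted p = 0.0702). Of the 3 fibroblast markers tested in 8276KD over 3NC, 1 was called lower (Pdgfra, at -0.43) and none higher. Summed markers of peritubular myoid cells (5 with values) ranged from 66.5 to 76.4 FPKM in 8276OV, from 83.4 to 88.2 in 5NC, from 67.4 to 78.6 in 8276KD and from 77.5 to 82.0 in 3NC. Summed Sertoli markers (7 with values) averaged 54.6 FPKM in 8276OV, 59.8 in 5NC, 66.0 in 8276KD and 58.6 in 3NC. Of the 3 tested, 1 was called higher and 2 lower in 8276KD over 3NC, where 39.4% of all genes were called. Macrophage sums (3 with values) averaged 1.86, 2.23, 2.98 and 5.09 FPKM in the same order. Leydig and endothelial sums reached at most 2.03 FPKM. The part of these differences in the results was not tested, and in bulk RNA fewer cells of a type and less RNA per cell cannot be told apart.

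Libraries also differed in how expression followed the GC content of transcripts. The slope of each gene's deviation from its mean was between -0.462 and -0.237 log2 units per 10 points of GC content in 8276OV, and between 0.148 and 0.198 in 5NC. In 8276KD it was -0.0402, 0.184 and -0.00192 in replicates 1, 2 and 3, and in 3NC it lay between 0.103 and 0.151. Replicate 2 of 8276KD therefore stood apart from the other 2 libraries of its group, and leaving it out changed no call among the members. The 8276OV libraries spread about as widely, at -0.462, -0.237 and -0.355 in replicates 1, 2 and 3. Leaving out any single library of 8276OV changed no member's call either. Across 11197 genes, the Spearman rank correlation of the log2 fold change of 8276OV over 5NC with GC content was -0.789, against -0.22 for 8276KD over 3NC. These are correlations across genes, which are not independent replicates. A second value, with the GC trend of each library removed, is therefore given beside the main fold changes, and the part of the GC trend in the fold changes was not tested further.

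Grb10, Peg3, Igf2, Peg10 and Cdkn1c were expressed above 1 FPKM in all 12 libraries, and Plagl1, Mest and Dlk1 stayed below 1 FPKM in all 12. Grb10 was the highest member in each library and Dlk1 the lowest. Peg3 was second in 11 libraries, and Igf2 was second in the remaining library, replicate 3 of 3NC. The 5 expressed members passed the filter on low values (at least 1 FPKM in at least 3 libraries) and were tested. The lowest and highest implied fragments per library behind them were 7980 and 11613 for Grb10, 1324 and 2891 for Peg3, 187 and 765 for Igf2, 155 and 356 for Peg10, and 24 and 121 for Cdkn1c.

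**Figure D1:**
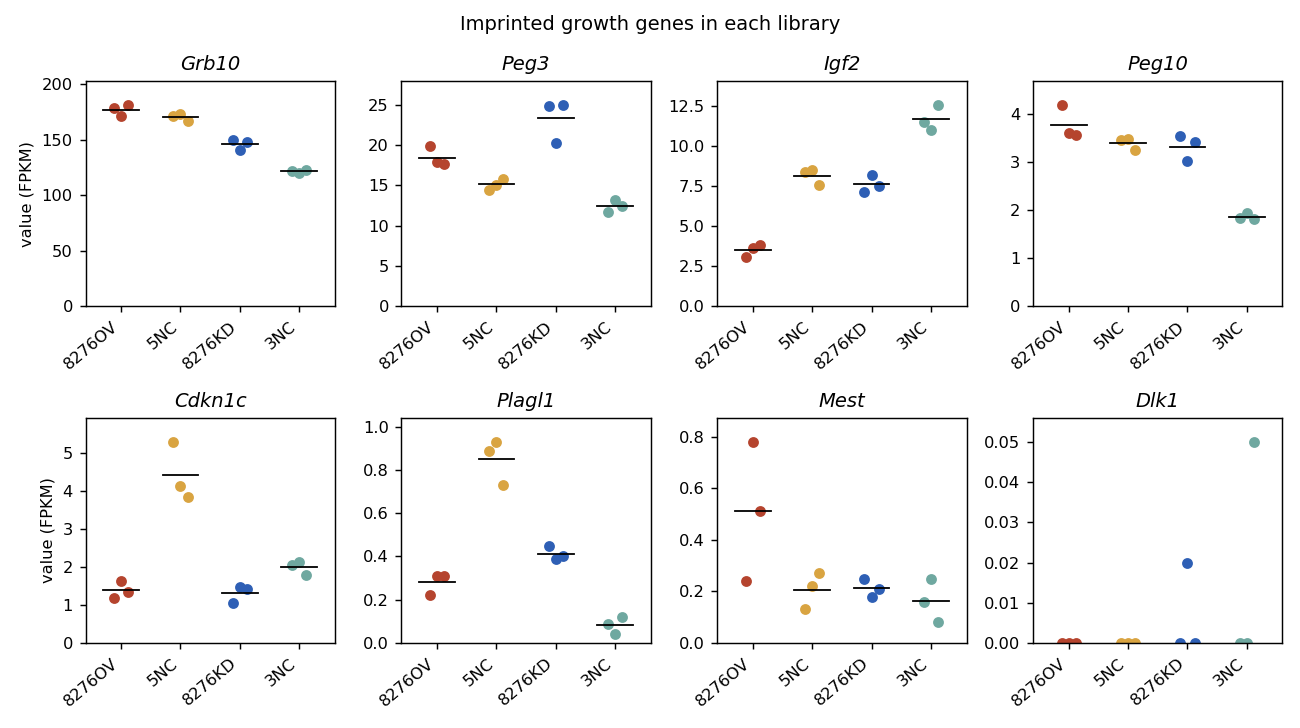
FPKM (vertical axis, linear, own scale per gene) of the 8 imprinted growth genes in each of the 12 libraries, by group. Points are libraries and lines are group means, drawn for genes above 0 in every library. Igf2 lies lowest in 8276OV (3.11 to 3.86 FPKM) and highest in 3NC (11.01 to 12.58 FPKM), and Cdkn1c lies highest in 5NC (3.84 to 5.29 FPKM).

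In 8276OV cells, the growth factor gene Igf2 and the growth inhibitor gene Cdkn1c were lower than in 5NC cells, by 2.31-fold and 3.17-fold in mean FPKM, and Peg3 was 1.22-fold higher. Peg10 and Grb10 did not pass the test. Of the 5 members tested, 1 was called higher and 2 lower at an adjusted p below 0.05 (limma on log2(FPKM + 1), Benjamini-Hochberg over 11360 genes). In the same comparison 74.4% of all genes were called, 30.3% higher and 44.1% lower, so the members' share was not above the background. With quantile normalization the split over all genes was 39.0% higher and 35.2% lower. The median log2 fold change was 0.06 for the 5 members and -0.09 for all genes. After GC correction the same 3 members were called, against 54.8% of all genes. The libraries of the 2 groups did not overlap for 4 of the 5 members, as for 77.6% of all genes.

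In 8276KD cells, Peg3, Peg10 and Grb10 were higher than in 3NC cells, by 1.88-fold, 1.79-fold and 1.2-fold in mean FPKM. Igf2 and Cdkn1c were lower, by 1.53-fold and 1.52-fold. All 5 members tested were called, 3 higher and 2 lower, against 39.4% of all genes (20.0% higher and 19.5% lower). The libraries of 8276KD and 3NC did not overlap for any of the 5, as for 49.6% of all genes. After GC correction all 5 were called too, against 48.4% of all genes. The median log2 fold change was 0.27 for the members and 0.0 for all genes. Igf2 and Cdkn1c were called lower in both manipulations, as were 11.0% of all genes, and Peg3 was called higher in both, as were 9.35%.

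The control groups differed from each other as well. Cdkn1c, Peg10, Grb10 and Peg3 were higher in 5NC than in 3NC, by 2.21-fold, 1.83-fold, 1.4-fold and 1.22-fold in mean FPKM, and Igf2 was 1.43-fold lower. All 5 members were called, against 56.5% of all genes (30.6% higher and 25.9% lower), and their libraries did not overlap for any of the 5, as for 69.5% of all genes. The median log2 fold change was 0.48 for the members and 0.02 for all genes. Which control a manipulation was set against therefore decided some calls, and values against the other control are given where they change a call or a direction. For all 5 members the effect of 8276OV over 5NC differed from that of 8276KD over 3NC, as it did for 60.6% of all genes (24.5% higher and 36.2% lower, or 31.2% and 28.4% with quantile normalization). After GC correction it differed for 3 of the 5, and for 49.3% of all genes. Comparisons that use the same control libraries share their errors, so the members' values in them are only set side by side.

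**Figure D2:**
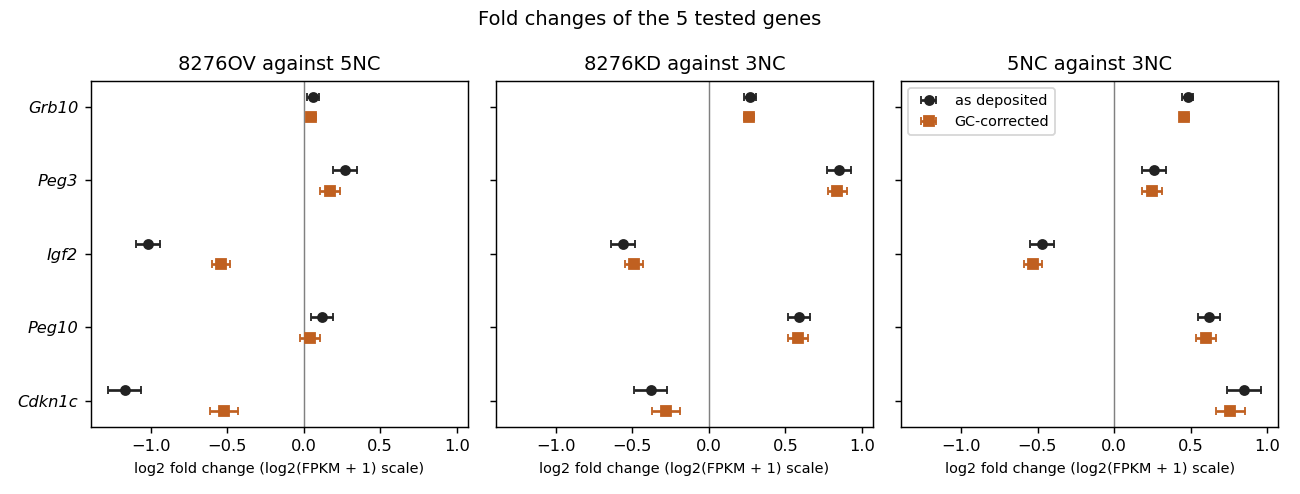
Log2 fold changes (horizontal axis, log2(FPKM + 1) scale) of the 5 tested members in 3 comparisons, with limma standard errors, from values as deposited (circles) and after GC correction (squares). Igf2 and Cdkn1c move in 8276OV against 5NC, where Igf2 is at -1.02 as deposited and at -0.54 after correction, while the squares of 8276KD against 3NC lie close to the circles.

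Igf2 encodes insulin-like growth factor 2, a secreted fetal growth factor that signals through the receptors Igf1r and Insr (gene 16002, chr7:142650768-142666816, GRCm38). It had 3.11, 3.65 and 3.86 FPKM in 8276OV, against 8.39, 8.55 and 7.6 in 5NC. It had 7.16, 8.24 and 7.52 FPKM in 8276KD, against 11.53, 11.01 and 12.58 in 3NC. Each manipulated group lay wholly below its control, 3NC was the highest group, and the 5NC and 8276KD libraries overlapped. The means were 3.54 ± 0.387 FPKM in 8276OV, 8.18 ± 0.509 in 5NC, 7.64 ± 0.55 in 8276KD and 11.7 ± 0.8 in 3NC (SD, n = 3 each).

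The log2 fold change of Igf2 was -1.02 ± 0.0779 (SE) in 8276OV over 5NC, with limma's adjusted p = 2.58e-07. It was -0.56 ± 0.0779 in 8276KD over 3NC (limma, adjusted p = 0.0001). Against 5NC the 8276KD value was -0.09 (limma, adjusted p = 0.357), so the lower level in 8276KD was called against 3NC and not against 5NC. In 5NC over 3NC it was -0.47 (limma, adjusted p = 0.000186). The fall in 8276OV was the larger of the 2, with a difference between the effects of -0.46 ± 0.11 (limma, adjusted p = 0.00282). After GC correction the effects were -0.54 and -0.49, and their difference was -0.05 (limma, adjusted p = 0.633). The GC content of the longest Igf2 transcript is 55.8%. Among the 1119 tested genes between 55.6% and 57.9% GC, the median log2 fold change of 8276OV over 5NC was -0.54 and the 5th percentile -0.97, so Igf2 lay below that percentile. Igf2 shares 3596 exon bases on the same strand with the readthrough gene Gm49394 and 98 with the antisense gene Igf2os. Reads of these genes may be counted in Igf2, because the use of strand in counting is not given in the sources read.

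Cdkn1c encodes p57, an inhibitor of cyclin-dependent kinases that holds cells out of division (gene 12577, chr7:143458339-143461059). It had 1.19, 1.64 and 1.35 FPKM in 8276OV, against 5.29, 4.12 and 3.84 in 5NC. It had 1.05, 1.46 and 1.42 FPKM in 8276KD, against 2.06, 2.14 and 1.79 in 3NC. The 8276OV and 8276KD libraries overlapped each other, 3NC lay above both, and 5NC was the highest group. The means were 1.39 ± 0.228 FPKM in 8276OV, 4.42 ± 0.769 in 5NC, 1.31 ± 0.226 in 8276KD and 2.0 ± 0.183 in 3NC (SD, n = 3 each).

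The log2 fold change of Cdkn1c was -1.17 ± 0.109 (SE) in 8276OV over 5NC (limma, adjusted p = 9.3e-07). Of the 11360 genes tested, 83 (0.731%) lay as far down, Cdkn1c included. After GC correction it was -0.52 (limma, adjusted p = 0.000281), the transcript's GC content being 59.4%. Among the 1119 tested genes between 57.9% and 72.8% GC, the median log2 fold change of 8276OV over 5NC was -0.66. The 5th percentile of these genes was -1.17, so Cdkn1c lay about at that percentile. Against 3NC the 8276OV value was -0.33 as deposited (limma, adjusted p = 0.0149) and 0.25 after GC correction (limma, adjusted p = 0.0303), so the direction against that control turned with the correction. Inhibition gave -0.38 ± 0.109 in 8276KD over 3NC (limma, adjusted p = 0.0145). That call was lost without replicate 2 of 3NC (-0.34, adjusted p = 0.0542) or without replicate 1 of 8276KD (-0.29, adjusted p = 0.0656), both with limma. Against 5NC the 8276KD value was -1.22 (limma, adjusted p = 8.27e-07). The difference between the effects was -0.79 ± 0.155 (limma, adjusted p = 0.000711), and -0.23 after GC correction (limma, adjusted p = 0.156). Between the controls the value was 0.85 ± 0.109 in 5NC over 3NC (limma, adjusted p = 2.01e-05). After GC correction 8276KD over 3NC was at -0.28 (limma, adjusted p = 0.0213). Cdkn1c shares 625 exon bases with the antisense gene Gm44732.

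**Figure D3:**
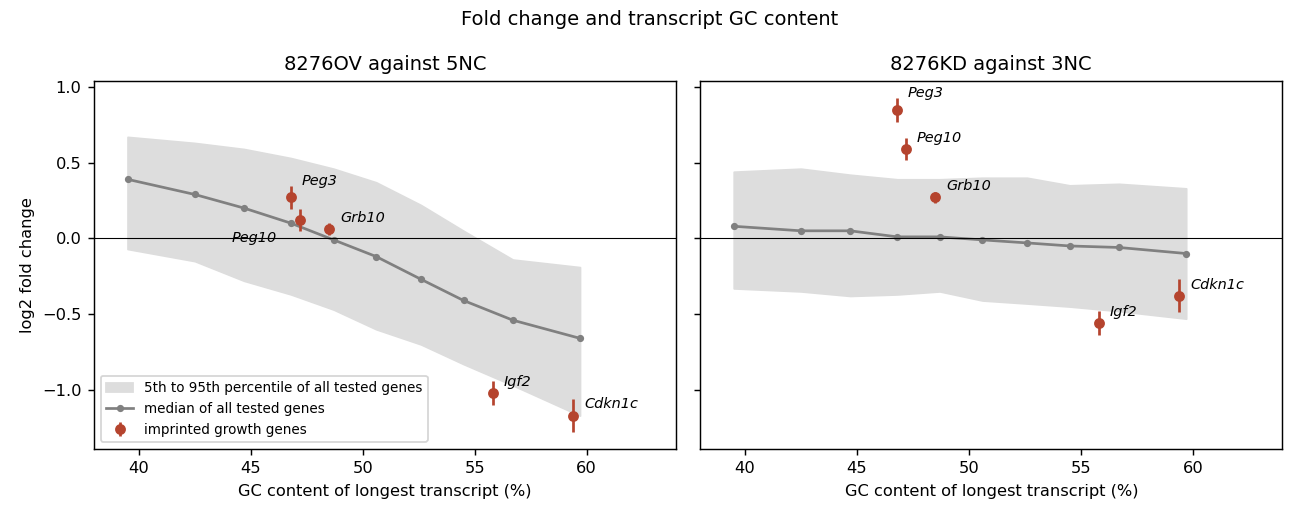
Log2 fold change (vertical axis) against GC content of the longest transcript in percent (horizontal axis), for 8276OV against 5NC and 8276KD against 3NC. Red points are the 5 tested members with standard errors. The grey line and band are the median and the 5th to 95th percentile of all tested genes in 10 bins, where the median for 8276OV against 5NC lies at 0.39 in the lowest bin and at -0.66 in the highest.

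Grb10 encodes an adaptor that binds the insulin and IGF1 receptors and dampens their signal (gene 14783, chr11:11930499-12037428). It had 178.57, 171.62 and 181.03 FPKM in 8276OV, against 171.19, 172.91 and 166.5 in 5NC. It had 150.05, 140.84 and 148.03 FPKM in 8276KD, against 122.21, 119.96 and 122.37 in 3NC. The 8276OV and 5NC libraries overlapped and were highest, 8276KD lay between, and 3NC was the lowest group. The means were 177.1 ± 4.88 FPKM in 8276OV, 170.2 ± 3.32 in 5NC, 146.3 ± 4.84 in 8276KD and 121.5 ± 1.35 in 3NC (SD, n = 3 each). Its mean over the 12 libraries stood at percentile 97.0 of all genes.

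Grb10 did not pass the test in 8276OV over 5NC, with a log2 fold change of 0.06 ± 0.0383 (SE; limma, adjusted p = 0.194). With median-of-ratios factors it was called, at 0.15 (limma, adjusted p = 0.00323). Against 3NC the 8276OV value was 0.54 (limma, adjusted p = 4.48e-08). It was 0.27 ± 0.0383 in 8276KD over 3NC (limma, adjusted p = 0.000127), and against 5NC it was -0.22 (limma, adjusted p = 0.000331), so the control decided the direction. Between the controls it was 0.48 ± 0.0383 in 5NC over 3NC (limma, adjusted p = 2.04e-07). The difference between the effects was -0.21 ± 0.0542 (limma, adjusted p = 0.0048), and with median-of-ratios factors it did not pass, at -0.12 (limma, adjusted p = 0.0803). After GC correction the 3 comparisons gave 0.05, 0.26 and 0.46, with the same calls.

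Peg3 encodes a large zinc finger protein expressed from the paternal copy (gene 18616, chr7:6703892-6730462). It had 19.83, 17.9 and 17.62 FPKM in 8276OV, against 14.46, 15.06 and 15.84 in 5NC. It had 24.87, 20.29 and 24.94 FPKM in 8276KD, against 11.67, 13.19 and 12.43 in 3NC. None of the 4 groups overlapped another, with 8276KD highest, then 8276OV, 5NC and 3NC. The means were 18.4 ± 1.2 FPKM in 8276OV, 15.1 ± 0.692 in 5NC, 23.4 ± 2.66 in 8276KD and 12.4 ± 0.76 in 3NC (SD, n = 3 each).

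The log2 fold change of Peg3 was 0.85 ± 0.0786 (SE) in 8276KD over 3NC (limma, adjusted p = 2.8e-06), and 52 of the 11360 genes (0.458%) lay as far up, Peg3 included. It was 0.84 after GC correction and 0.59 against 5NC (limma, adjusted p = 3.26e-05). Overexpression gave 0.27 ± 0.0786 in 8276OV over 5NC (limma, adjusted p = 0.00683), and 0.17 after GC correction (limma, adjusted p = 0.037). The difference between the effects was -0.58 ± 0.111 (limma, adjusted p = 0.000604), so the rise in 8276KD was the larger. The controls differed by 0.26 ± 0.0786 in 5NC over 3NC (limma, adjusted p = 0.0112), a call lost without replicate 1 of 3NC (0.22; limma, adjusted p = 0.053).

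Peg10 derives from a retrotransposon and is needed for the placenta in mice (gene 170676, chr6:4747306-4760517). It had 4.18, 3.6 and 3.55 FPKM in 8276OV, against 3.46, 3.48 and 3.24 in 5NC. It had 3.53, 3.01 and 3.41 FPKM in 8276KD, against 1.83, 1.93 and 1.81 in 3NC. The 3NC libraries lay apart below the others, 8276KD overlapped 5NC, and 8276OV lay above 5NC by a margin too small for the test. The means were 3.78 ± 0.35 FPKM in 8276OV, 3.39 ± 0.133 in 5NC, 3.32 ± 0.272 in 8276KD and 1.86 ± 0.0643 in 3NC (SD, n = 3 each).

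The log2 fold change of Peg10 was 0.59 ± 0.072 (SE) in 8276KD over 3NC (limma, adjusted p = 3.03e-05) and -0.03 against 5NC (limma, adjusted p = 0.772). In 8276OV over 5NC it was 0.12 ± 0.072 (limma, adjusted p = 0.15), and against 3NC it was 0.74 (limma, adjusted p = 7.58e-07). It was 0.62 ± 0.072 in 5NC over 3NC (limma, adjusted p = 7.32e-06). After GC correction the values were 0.58 in 8276KD over 3NC and 0.04 in 8276OV over 5NC (limma, adjusted p = 0.645). With quantile normalization, Peg10 was called in 8276OV over 5NC, at 0.28 (limma, adjusted p = 0.00551), and with median-of-ratios factors, at 0.19 (limma, adjusted p = 0.0292). Like Grb10, Peg10 was thus called in 8276OV against 3NC but not against 5NC. The difference between the effects was -0.48 ± 0.102 (limma, adjusted p = 0.00138).

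Plagl1, a zinc finger transcription factor of imprinted gene networks (gene 22634, chr10:13090832-13131694), did not pass the filter on low values. It had 0.22, 0.31 and 0.31 FPKM in 8276OV, against 0.89, 0.93 and 0.73 in 5NC. It had 0.45, 0.39 and 0.4 FPKM in 8276KD, against 0.09, 0.04 and 0.12 in 3NC. None of the groups overlapped another, with 5NC highest and 3NC lowest. These values rest on 3 to 65 implied fragments per library. Without the filter the log2 fold change was -0.53 ± 0.0494 (SE) in 8276OV over 5NC (limma, adjusted p = 1.61e-05), where 49.9% of 17576 genes were called. It was 0.38 ± 0.0494 in 8276KD over 3NC (limma, adjusted p = 0.000336) against 24.0% of genes called, and 0.77 ± 0.0494 in 5NC over 3NC (limma, adjusted p = 1.01e-06) against 37.8%. The log2(FPKM + 1) scale understates changes at such levels.

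Mest, a gene of mesodermal tissue whose product has the fold of a hydrolase (gene 17294, chr6:30733506-30748466), had 0.24, 0.78 and 0.51 FPKM in 8276OV, against 0.13, 0.22 and 0.27 in 5NC. It had 0.25, 0.18 and 0.21 FPKM in 8276KD, against 0.16, 0.25 and 0.08 in 3NC. All 4 groups overlapped, and the implied fragments were 3 to 26 per library. Without the filter the log2 fold change in 8276OV over 5NC was 0.31 ± 0.109 (SE; limma, adjusted p = 0.0366), and in 8276KD over 3NC it was 0.06 (limma, adjusted p = 0.774). Mest shares 912 exon bases with Copg2 on the opposite strand, a gene at 20.7 to 30.2 FPKM in the group means, so part of these few reads may belong to Copg2.

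Dlk1, a transmembrane protein related to Notch ligands (gene 13386, chr12:109452485-109463336), was listed at 0 in 10 of the 12 libraries. It had 0.02 FPKM in replicate 2 of 8276KD and 0.05 FPKM in replicate 3 of 3NC. At most 3 implied fragments lay behind any of these values, so differences in Dlk1 were not detectable at this depth.

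Imprinted genes lie in clusters, and 39 neighbours of the members were looked up, of which 29 had values and 12 passed the filter. Among them, 5 were called higher in 8276OV over 5NC, 4 lower and 3 were not called, with a median log2 fold change of 0.04. For 8276KD over 3NC, 4 were called higher, 1 lower and 7 were not called, with a median of 0.08. Both shares, 75.0% and 41.7%, were near those over all genes (74.4% and 39.4%). After GC correction, 1 was called higher and 4 lower in 8276OV over 5NC, a share of 41.7% against 54.8% of all genes, with a median of -0.07. In 5NC over 3NC, 7 were called higher, 3 lower and 2 were not called, a share of 83.3% against 56.5% of all genes.

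Sgce, a sarcoglycan gene annotated 101 bases from Peg10, averaged 107.8 ± 4.99 FPKM in 8276OV, 101.9 ± 2.61 in 5NC, 81.0 ± 2.14 in 8276KD and 75.5 ± 1.89 in 3NC (SD, n = 3 each). Like Peg10 it was higher in 5NC than in 3NC, by 0.43 on the log2 scale (limma, adjusted p = 2.39e-06). It was not called in 8276KD over 3NC, at 0.1 (limma, adjusted p = 0.0906), where Peg10 was at 0.59. Overexpression left it at 0.08 over 5NC (limma, adjusted p = 0.12) as deposited and at -0.3 after GC correction (limma, adjusted p = 0.000119). Against the other control it was called in both, at 0.51 in 8276OV over 3NC (limma, adjusted p = 2.81e-07) and -0.33 in 8276KD over 5NC (limma, adjusted p = 3.44e-05). Usp29, which starts near Peg3 on the other strand, stayed below 1 FPKM in all 12 libraries, while Peg3 reached 24.94.

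On chromosome 7, Cd81, a tetraspanin gene 385.9 kb from Igf2, averaged 156.4 ± 5.66 FPKM in 8276OV, 194.6 ± 11.7 in 5NC, 192.4 ± 14.6 in 8276KD and 118.9 ± 0.49 in 3NC (SD, n = 3 each). Its log2 fold change was -0.31 in 8276OV over 5NC (limma, adjusted p = 0.000185) and 0.69 in 8276KD over 3NC (limma, adjusted p = 9.79e-07). Against the other control both results changed, to 0.39 in 8276OV over 3NC (limma, adjusted p = 2.48e-05) and -0.02 in 8276KD over 5NC (limma, adjusted p = 0.812). Osbpl5, a lipid transfer protein gene 227.7 kb from Cdkn1c, was at -0.61 in 8276OV over 5NC (limma, adjusted p = 2.39e-05) and at -0.09 after GC correction (limma, adjusted p = 0.181). Tssc4 was at -0.57 and, after GC correction, at 0.09 (limma, adjusted p = 0.282). Osbpl5 and Tssc4 thus lost their calls with the correction, whereas Cd81 kept its call, at -0.2 (limma, adjusted p = 0.00141). After correction 54.8% of all genes were called, and the part of the GC trend in these calls was not tested. Next to Grb10, Ddc, the decarboxylase of dopamine and serotonin synthesis, was at 0.41 in 8276OV over 5NC (limma, adjusted p = 0.00556) and at 0.49 in 8276KD over 3NC (limma, adjusted p = 0.00416). It averaged 2.4 ± 0.273 FPKM in 8276OV, 1.58 ± 0.369 in 5NC, 1.57 ± 0.308 in 8276KD and 0.823 ± 0.116 in 3NC (SD, n = 3 each), so 8276KD against 5NC was at 0.0 (limma, adjusted p = 1.0).

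Of 22 other imprinted genes looked up, 12 were tested. Of these, 3 were called higher and 5 lower in 8276OV over 5NC, a share of 66.7% against 74.4% of all genes, with a median log2 fold change of 0.02. After GC correction 4 were called higher and 1 lower, a share of 41.7% against 54.8% of all genes (27.8% higher and 27.0% lower), with a median of -0.02. Under inhibition, 4 were called higher and 3 lower in 8276KD over 3NC, a share of 58.3% against 39.4% of all genes, with a median of 0.04. Impact, a translational regulator gene expressed from the paternal copy, averaged 54.0 ± 3.48 FPKM in 8276OV, against 27.9 ± 0.769 in 5NC (SD, n = 3 each). Its log2 fold change of 0.93 (limma, adjusted p = 7.07e-08) was 0.64 after GC correction, and it was 0.32 in 8276KD over 3NC (limma, adjusted p = 0.00062). Mcts2 was at 0.61 in 8276OV over 5NC and at 0.25 in 8276KD over 3NC, both called, and at 0.15 in 8276KD over 5NC, which was not (limma, adjusted p = 0.0995). Gnas, which encodes the stimulatory G protein alpha subunit, averaged 583.5 ± 33.8 FPKM in 8276OV, against 865.6 ± 34.2 in 5NC (SD, n = 3 each), a log2 fold change of -0.57 that was 0.01 after GC correction (limma, adjusted p = 0.865). Gab1, an adaptor of receptor tyrosine kinases, was at 0.51 in 8276KD over 3NC (limma, adjusted p = 1.73e-06), and at -0.46 against 5NC.

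**Figure D4:**
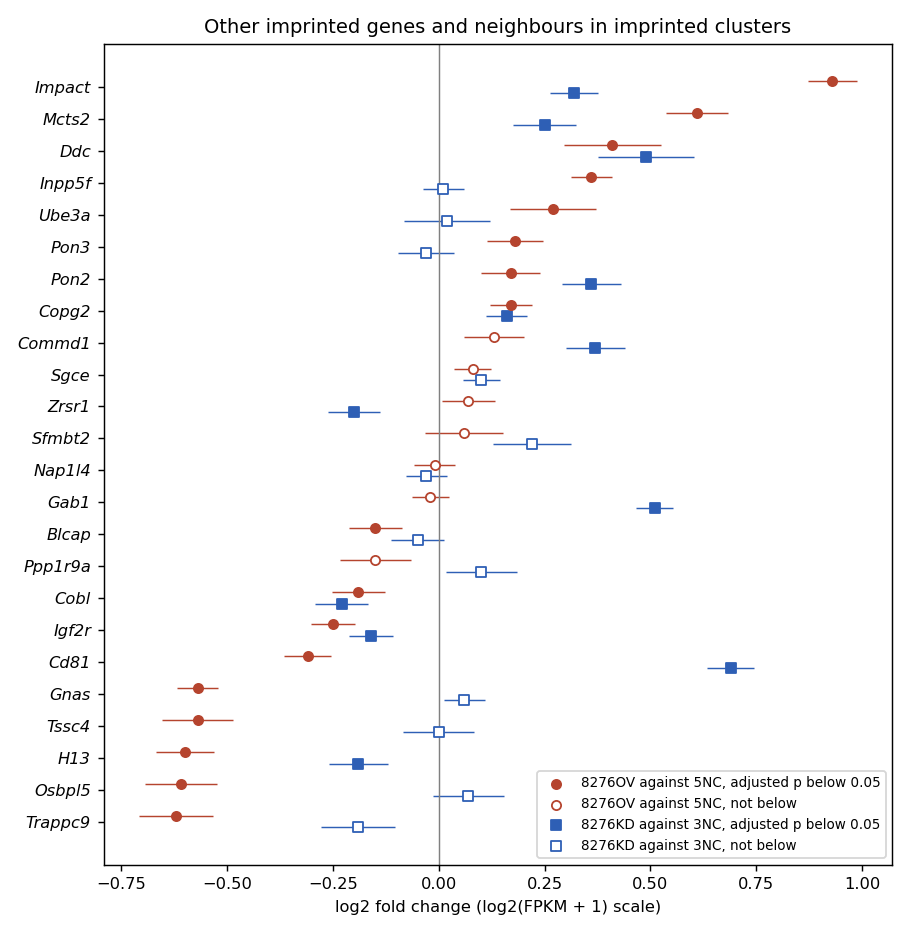
Log2 fold changes (horizontal axis, log2(FPKM + 1) scale) with limma standard errors of the 24 tested neighbours and other imprinted genes, for 8276OV against 5NC (circles) and 8276KD against 3NC (squares). Filled symbols have an adjusted p below 0.05. The genes spread to both sides of 0, with Impact at 0.93 in 8276OV and Cd81 at -0.31 in 8276OV and 0.69 in 8276KD.

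IGF2 acts through receptors and the insulin signalling chain, and 18 of 19 such genes were tested. In 8276OV over 5NC, 5 were called higher, 9 lower and 4 were not called, with a median log2 fold change of -0.18. The share of 77.8% was near that over all genes (74.4%), and after GC correction 3 were called higher and 6 lower, with a median of -0.04. In 8276KD over 3NC, 4 were called higher, 5 lower and 9 of the 18 were not called, where 39.4% of all genes were called, with a median of -0.04. Igf2bp3, whose protein binds Igf2 mRNA, averaged 5.73 ± 0.127 FPKM in 8276OV, 2.84 ± 0.338 in 5NC, 5.83 ± 0.601 in 8276KD and 6.09 ± 0.385 in 3NC (SD, n = 3 each). Its log2 fold change was 0.81 in 8276OV over 5NC (limma, adjusted p = 1.58e-06) but -0.07 against 3NC, and 5NC alone was low. Igf2bp2 was at -0.48 (limma, adjusted p = 1.26e-06) and -0.41 after GC correction. Akt1, the kinase downstream of the receptors, was at -0.73 (limma, adjusted p = 3.4e-06) and at -0.06 after GC correction (limma, adjusted p = 0.139). Igf2r, the imprinted receptor that clears IGF2, averaged 17.9 ± 0.67 FPKM in 8276OV, 21.5 ± 0.396 in 5NC, 14.4 ± 0.711 in 8276KD and 16.2 ± 0.58 in 3NC (SD, n = 3 each). Its mean, like that of Igf2, was lower in 8276OV than in 5NC and lower in 8276KD than in 3NC. Against 3NC, however, the 8276OV mean of Igf2r was higher, whereas that of Igf2 was lower. Between the controls Igf2r was at 0.39 in 5NC over 3NC (limma, adjusted p = 2.99e-05), where Igf2 was at -0.47. The called genes with the smallest p in 8276KD over 3NC were Foxo3 at -0.47, Pik3r1 at 0.31, Shc1 at -0.23 and Mtor at -0.19. Against 5NC, Foxo3 was at -0.49, Pik3r1 at 0.02 (limma, adjusted p = 0.819) and Mtor at -0.02 (limma, adjusted p = 0.718), and Shc1 turned to 0.26 (limma, adjusted p = 0.0016).

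For each tested member the genes with the most similar course were found by the root mean square difference of centred log2(FPKM + 1) over the 12 libraries. They were Phlda3 (0.0837) and Dlg4 (0.109) for Igf2, whose own deviations had a root mean square of 0.545. For Cdkn1c (0.505) they were Bckdha (0.141) and Lamb2 (0.151). Phlda3 averaged 7.7 FPKM in 8276OV, 16.3 in 5NC, 16.2 in 8276KD and 22.9 in 3NC, the same order of groups as Igf2. Peg3 (0.329) was closest to Pcdh19 (0.0977) and Srsf3 (0.13), Peg10 (0.294) to Zdhhc2 (0.0596) and Lpl (0.0618), and Grb10 (0.214) to Ube2e3 (0.0332) and Marchf8 (0.0362). No other member and no listed neighbour was among these genes. The libraries share group and GC trend, so the likeness is a description.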

How the data were processed

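Total RNA of C18-4 cells was sequenced in 12 libraries in 4 groups of 3, and the authors deposited a table of 17576 genes with a value per library. The values were read as FPKM from their behaviour, since no label or file header names the deposited unit, and TPM of a subset of genes cannot be told apart. Per the submitters' processing notes, reads were placed on mm10. How reads were aligned, quantified and assigned by strand or among copies is not stated in the labels. Values carry 2 decimals, so a 0 can be rounding, and depth is implied from the values, not counted.

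Genes with at least 1 FPKM in at least 3 libraries (11360 genes) were tested as log2(FPKM + 1) with limma 3.58.1 in R 4.3.3, with a mean per group over all 12 libraries, trend and robust set to TRUE. Tests were two-sided, with Benjamini-Hochberg adjustment over all genes and a threshold of 0.05. Each manipulation was compared with its control, the controls with each other, and the effect of overexpression with that of inhibition. An exact permutation test of 3 libraries against 3 could not reach that threshold. GC correction removed, in each library, a natural spline of 5 degrees of freedom fitted to the deviation from the gene mean on GC content of the longest GENCODE transcript. The limma fit, without the GC correction, was tested on simulated data with independent libraries and no GC trend. Alternatives were a pseudocount of 0.1, other filters, quantile and median-of-ratios scaling, other controls, a replicate block, leaving out libraries, and GC correction. GC correction with the other control was added after seeing the data.

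The members and gene lists were chosen with earlier results of these data known. All members are named. Of each list, at most 4 called genes per comparison with the smallest p were eligible to be named. Usp29 and the markers named with values fall outside that rule and were named after their values were seen.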

Additional observations from a re-analysis of the deposited data

Results flagged for a closer look

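The effects of the manipulations differed from each other for all 5 tested members, by the test of the difference itself (8276OV over 5NC minus 8276KD over 3NC, limma, adjusted over 11360 genes), where 60.6% of all genes passed. The median difference was -0.48 for the members and -0.07 for all genes. On the log2 scale the difference was -0.79 for Cdkn1c, -0.58 for Peg3, -0.48 for Peg10, -0.46 for Igf2 and -0.21 for Grb10. For Peg3 both effects were positive and that of 8276KD was larger. For Igf2 and Cdkn1c both were negative and that of 8276OV was larger in size. The difference also carries the gap between the controls. In 5NC over 3NC that gap was 0.85 for Cdkn1c, 0.62 for Peg10, 0.48 for Grb10, 0.26 for Peg3 and -0.47 for Igf2. Cdkn1c averaged 1.39 FPKM in 8276OV and 1.31 in 8276KD, and their libraries overlapped. Peg10 and Grb10 averaged higher in 8276OV than in 8276KD, at 3.78 against 3.32 FPKM and 177.1 against 146.3 FPKM. After GC correction the difference was -0.67 for Peg3, -0.54 for Peg10 and -0.21 for Grb10, which passed the test, and -0.05 for Igf2 and -0.23 for Cdkn1c, which did not, and 49.3% of all genes passed. The part of the GC trend in the difference was not tested further.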

How the results depend on the processing

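Of 327 recomputed member fold changes, 304 kept their direction and side of the threshold, 9 passed the threshold newly, 8 kept their direction but no longer passed it and 6 reversed. Some reversed values also no longer passed, all in 8276KD against 5NC. They were Peg10 with and without GC correction (limma, adjusted p = 0.811 and 0.772) and Igf2 with it (limma, adjusted p = 0.571). Quantile normalization put the median log2 fold change of all genes in 8276OV over 5NC at 0.0286, against -0.0884 as deposited. The choice of control moved most members. The number of members called in 8276OV over 5NC was 5 in place of 3 against 3NC, against all 6 controls, with GC correction against 3NC, with median-of-ratios factors and with no filter on low values. In that order 8538, 8874, 7535, 8446 and 8766 genes were called. The share of all genes was 75.2% against 3NC, 67.3% with GC correction against 3NC and 49.9% with no filter. Without the filter the 5 were Igf2, Cdkn1c, Peg3 and the low Mest and Plagl1, and Grb10 and Peg10 were not called. In 8276KD over 3NC it was 3 in place of 5 against 5NC, with GC correction against 5NC and with a filter on a mean of at least 5, which leaves out Cdkn1c and Peg10. Of all genes, 55.3% were called against 5NC and 60.7% with GC correction as well, and that filter left 3567 genes called. GC correction with 5NC as control also called 6799 genes in place of 4477. With 5NC as the control of 8276KD, Grb10 was at -0.22 and Peg10 at -0.03. With GC correction as well, Grb10 was at -0.19, Peg10 at -0.02 and Igf2 at 0.04. With GC correction and 3NC as control, Cdkn1c in 8276OV was at 0.25. In 5NC over 3NC and in the difference between the effects the filter on the mean left 3 members called, with 5098 and 5787 genes. GC correction left 3 members called in the difference, where 49.3% of all genes passed. The cause was not tested, other than the genes that the filter leaves out.

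Leaving out single libraries gave 7781 to 8496 genes and 3 to 3 members called in 8276OV over 5NC, 3428 to 5008 genes and 4 to 5 members in 8276KD over 3NC, 5592 to 5703 genes and 4 to 5 members in 5NC over 3NC, and 6286 to 7187 genes and 5 to 5 members for the difference. Same-numbered libraries of different groups had correlated deviations over 0.1 in 2 of 18 pairs (-0.254 to 0.59). Both pairs joined 8276KD with 8276OV, at 0.467 for replicate 1 and 0.59 for replicate 2, against 0.0287 for replicate 3. Differently numbered libraries of these groups lay between -0.602 and 0.359. What the shared number stands for is not stated in the labels, and its part in the correlations was not tested. With the replicate block 8407, 4434, 6380 and 6833 genes were called in the 4 comparisons, and no member's call changed. Depth limits Plagl1, Mest and Dlk1, which rest on at most 65 implied fragments.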

Other observations

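Cdkn1c belongs to the inhibitors of cyclin-dependent kinases, and all 15 listed inhibitors, cyclins and kinases were tested. In 8276OV over 5NC, 3 were called higher, 10 lower and 2 were not called, a share of 86.7% against 74.4% of all genes. The median log2 fold change was -0.38. After GC correction 1 was called higher and 6 lower, a share of 46.7% against 54.8% of all genes, with a median of -0.03. Cdk4, the kinase of early G1, averaged 163.7 ± 11.6 FPKM in 8276OV, 275.4 ± 7.61 in 5NC, 163.7 ± 7.91 in 8276KD and 156.8 ± 2.25 in 3NC (SD, n = 3 each). Like Cdkn1c, Cdk4 was highest in 5NC, with log2 fold changes of -0.75 in 8276OV over 5NC (limma, adjusted p = 1.29e-07) and 0.81 in 5NC over 3NC (limma, adjusted p = 2.21e-08). Against the other control it was at 0.06 in 8276OV over 3NC (limma, adjusted p = 0.301). The Cdk4 mean in 8276KD lay above that of 3NC and below that of 5NC. In 8276KD over 3NC, 4 were called higher, 5 lower and 6 were not called, a share of 60.0% against 39.4% of all genes. The inhibitor genes Cdkn2b, Cdkn1a and Cdkn2a were at -0.81, -0.62 and -0.61. Against 5NC, Cdkn2b was at -0.43 and Cdkn2a at -0.41, and Cdkn1a turned to 1.09 (limma, adjusted p = 1.93e-07). Cdkn1a, the relative of Cdkn1c that p53 induces, averaged 16.5 ± 2.62 FPKM in 8276OV, 21.0 ± 1.22 in 5NC, 45.7 ± 1.74 in 8276KD and 71.0 ± 1.18 in 3NC (SD, n = 3 each), so it was lower in 5NC than in 3NC where Cdkn1c was higher.

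Among Notch pathway genes, 9 of 14 were tested. In 8276KD over 3NC, 2 were called higher and 4 lower, a share of 66.7% against 39.4% of all genes, with a median log2 fold change of -0.37 (-0.35 after GC correction). The ligand gene Jag1 averaged 6.67 ± 0.46 FPKM in 8276KD, against 4.27 ± 0.471 in 3NC, and 14.5 ± 0.266 in 8276OV, against 9.61 ± 0.363 in 5NC (SD, n = 3 each), but 8276KD against 5NC was at -0.47 (limma, adjusted p = 8.44e-05). The receptor gene Notch3 averaged 2.54 ± 0.0473 FPKM in 8276KD, against 5.06 ± 0.08 in 3NC (SD, n = 3 each), and 8276KD against 5NC was at -0.08 (limma, adjusted p = 0.422). In 8276OV over 5NC, 1 was called higher and 6 lower, a share of 77.8% against 74.4% of all genes, with a median of -0.2. After GC correction 2 were called higher and 1 lower, a share of 33.3% against 54.8% of all genes, with a median of -0.01. From a list of genes tied to imprint maintenance, not all of them acting on DNA methylation, 12 were tested. In 8276OV over 5NC, 3 of them were called higher and 4 lower, a share of 58.3% against 74.4% of all genes. In 8276KD over 3NC, 1 was called higher and 2 lower, a share of 25.0% against 39.4%. After GC correction 6 were called higher and 2 lower in 8276OV over 5NC, a share of 66.7% against 54.8% of all genes. In 8276KD over 3NC the corrected counts were 2 higher and 5 lower, a share of 58.3% against 48.4%. Both shares were thus below those over all genes as deposited and above them after correction. Zfp57 averaged 21.7 ± 0.543 FPKM in 8276OV, 23.2 ± 1.68 in 5NC, 32.7 ± 2.13 in 8276KD and 35.9 ± 1.18 in 3NC (SD, n = 3 each). It was called in 5NC over 3NC, at -0.61 (limma, adjusted p = 1.68e-06). Its mean in 8276KD lay below that of 3NC and above that of 5NC. Dnmt1, the maintenance DNA methyltransferase, was at -0.3 in 8276KD over 3NC (limma, adjusted p = 0.00185).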
